A study of Mus musculus with 2 samples.

Results

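Among sorted epididymal adipose tissue macrophages (ATMs), the cells in which over 10% and at most 20% of the RNA molecules came from the mitochondrial genome were described in mice on control chow diet (CD) and in mice fed a high fat diet (HFD) overnight. A member had between 200 and 3500 detected genes and a share of unique molecular identifiers (UMIs, the tags that mark single captured RNA molecules) from the 13 protein-coding mitochondrial genes, whose symbols start with mt-, in that range. These high-mt cells numbered 924 among 4459 barcodes from CD and 797 among 3163 barcodes from HFD, which made 1721 of 7622 in all. They were set against the cells of the same library at or under 10%, called low-mt cells, 2364 in CD and 2021 in HFD. The study removed cells over 10% in its own quality filter.

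Each library was made from the pooled cells of 3 male mice of a C57BL strain, aged 8 to 12 weeks. The mice were kept on control chow for CD and given the high fat diet overnight for HFD. No genetic change was made in either group. Cells were sorted as CD45+Lin-Ly6Clow/-F4/80+, where Lin includes markers of T cells (TCRb), eosinophils (SiglecF) and neutrophils (Ly6G), and were sequenced by a droplet method that counts the 3′ ends of transcripts. With 1 library per diet there was no replicate, so no test between diets was possible, every difference between them is one between 2 libraries, and the 95% intervals given cover counting error only.

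A droplet that holds a macrophage captures RNA from the nucleus, the cytosol and the mitochondria together. The share of mitochondrial UMIs is used as a quality measure because RNA inside mitochondria can be kept when cytosolic RNA is lost, but it also differs between cell types and metabolic states. In adipose tissue, resident macrophages that lie along vessels carry *Lyve1*, *Folr2* and *Cd163* and take up debris and lipoproteins, whereas macrophages that have recently arisen from blood monocytes carry *Ccr2*, *Lyz1* and *Fn1*.

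The high-mt cells made up 20.7% of CD barcodes (95% exact binomial interval 19.5 to 21.9) and 25.2% of HFD barcodes (23.7 to 26.7). The HFD share was higher by 4.48 percentage points (Newcombe interval 2.56 to 6.41). This order turned round when at least 500 detected genes were asked for, with 15.8% in CD and 8.50% in HFD, beside fewer UMIs per cell in HFD. Cells over 20% went the other way, at 25.1% of CD and 10.2% of HFD barcodes. Of the 2 libraries, the CD library had 15003119 UMIs in total and the HFD library 9164686. The 2 libraries shared 14 barcode sequences, of which 4 were high-mt cells in CD and 3 in HFD.

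High-mt cells were shallower than low-mt cells, with a close median number of mitochondrial molecules. A CD member had a median of 180 mitochondrial UMIs, against 175.5 in CD low-mt cells, and an HFD member 112 against 100. The UMIs from all other genes had a median of 1093.5 in CD members against 4285 in CD low-mt cells, and of 666 in HFD members against 2673. Both quantities enter the rule that chose the cells, so these values are a description of the choice. At a matched number of other UMIs, by the draw described below, members had a median of 230 mitochondrial UMIs against 121.5 in CD and of 130 against 66 in HFD. Detected genes ranged from 268 to 2608 in CD members, with a median of 666, and from 246 to 1684 in HFD members, with a median of 428. No barcode in this mitochondrial range had over 3500 genes, so the upper gene limit removed none.

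**Figure D1:**
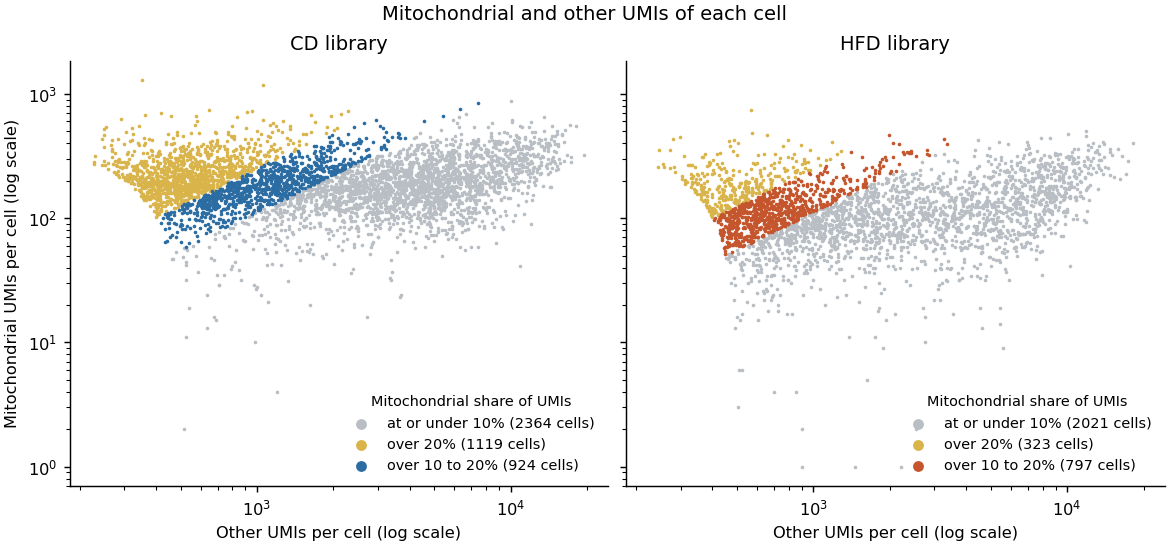
Mitochondrial UMIs (vertical axis, log scale) against UMIs of all other genes (horizontal axis, log scale) for each cell of the CD and HFD libraries, with cells over 10 to 20% mitochondrial UMIs and cells at or under 10% in different colours. The high-mt cells lie at the same height as the low-mt cells and to their left: the median mitochondrial UMIs were 180 and 175.5 in CD, while the median of other UMIs was 1093.5 and 4285.

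The makeup of the mitochondrial RNA was close in high-mt and low-mt cells. *mt-Co1*, a subunit of cytochrome c oxidase, took 19.8% of mitochondrial UMIs in CD members and 19.96% in CD low-mt cells, and 22.7% and 23.1% in HFD. *mt-Atp6*, a subunit of ATP synthase, took 19.3% and 19.7% in CD and 19.4% and 19.8% in HFD. *mt-Nd1*, a subunit of complex I, took 12.6% and 12.1% in CD and 10.0% and 9.58% in HFD. The spread between libraries in *mt-Co1* and *mt-Nd1* was wider than the spread between high-mt and low-mt cells of a library.

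The labelled cell type was checked on the genes of the sort and of macrophages in general. Levels are given as CPM (counts scaled to a common sum), which here leaves the mitochondrial genes out of the sum over cells. *Csf1r*, the receptor for macrophage colony-stimulating factor, was at 1304 CPM in CD members and 899 in HFD members. *Adgre1*, which codes for F4/80, was at 355 and 244 CPM, and *Ptprc*, which codes for CD45, at 307 and 426 CPM. *Lyz2*, the lysozyme of myeloid cells, was at 5711 and 7114 CPM. The whole list of 10 genes summed to 10004 CPM in CD members and 11694 CPM in HFD members, and in the UMI-matched sets described below its log2 ratio to low-mt cells was 0.04 in CD and 0.11 in HFD.

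Marker genes of other cells were at low levels. T and NK cell markers had 4 UMIs in the 924 CD members and 6 in the 797 HFD members, with *Cd3e*, *Cd3g*, *Trbc2* and *Gzma* at 0 in both. Eosinophil markers had 2 UMIs and 0 UMIs, with *Epx* and *Prg2* at 0 in both. The B cell list reached 353 UMIs in 276 CD members, of which *Ighm* gave 345, while *Ms4a1* and *Igkc* were at 0. In HFD the B cell list had 97 UMIs in 80 members, 96 of them from *Ighm*. Adipocyte markers stood at 229 CPM in CD members and 208 CPM in HFD members, against 68.2 and 39.8 CPM in all low-mt cells, with *Cfd*, the adipokine adipsin, as the most abundant gene. In the UMI-matched sets described next, the adipocyte markers were at 170 CPM in CD members and 244 CPM in CD low-mt cells, and at 172 and 121 CPM in HFD. Erythroid markers, led by the haemoglobin gene *Hbb-bs*, were at 173 CPM in CD members and 83.0 CPM in HFD members, against 890 and 969 CPM in all low-mt cells. In the UMI-matched sets they were at 152 and 159 CPM in CD and at 67.9 and 60.5 CPM in HFD.

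Since depth and mitochondrial share go together by construction, members were compared with low-mt cells of the same library and the same number of UMIs outside the mitochondrial genes, drawn at random within bins of 0.1 on the log2 scale. A low-mt partner was found for 406 of 924 CD members (43.9%) and 425 of 797 HFD members (53.3%). The matched members had a median of 1580.5 other UMIs in CD against 1576.5 in their partners, and of 833 against 841 in HFD. Their median mitochondrial share was 12.8% in either library, against 7.27% in CD partners and 7.01% in HFD partners. The 518 CD and 372 HFD members without a partner were shallower, with medians of 859.5 and 565 other UMIs, and had a median mitochondrial share of 15.5% and 14.95%. The matched comparison therefore describes the deeper members.

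Compared with low-mt cells matched on UMIs outside the mitochondrial genes, high-mt cells held a smaller share of ribosomal protein mRNA and a larger share of the nuclear RNAs *Neat1* and *Malat1*. In CD the sums of the resident, monocyte-derived, antigen presentation, lysosomal and chemokine programs differed by less than either of these. In HFD they differed by less than the ribosomal sum, while the resident and monocyte-derived sums, with log2 ratios of -0.18 and 0.18, were as far from 0 as the nuclear RNAs at 0.16. The sum of the alternative activation genes, carried by *Retnla*, was higher in HFD members by 0.33 (0.29 to 0.37), as far from 0 as the ribosomal sum, although the median of its 4 tested genes was -0.02. The interferon-stimulated genes had a sum with a log2 ratio of -0.27 in each library, at 2474 against 2981 CPM in CD (-0.36 to -0.17) and 1667 against 2006 CPM in HFD (-0.41 to -0.12), with 1 of 4 tested genes lower in CD, *Ifi27l2a*, and 0 of 2 in HFD. A gene was called apart when its CPM differed by 0.5 or more on the log2 scale, 1.41-fold, among genes with at least 200 UMIs in the compared cells together. In CD, 23 of 956 genes were higher in members (2.41%) and 19 were lower (1.99%). In HFD, 17 of 552 genes were higher (3.08%) and 24 were lower (4.35%). In both libraries in the same direction there was 1 higher gene of 547 (0.183%), *Fn1*. No gene was apart in opposite directions. The median log2 ratio of all genes tested was -0.01 in CD and -0.07 in HFD. With the ratios centred on that median, the HFD split turned from 17 higher and 24 lower to 29 higher and 7 lower, so the balance of directions there depended on the scaling.

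Smaller differences that went the same way in both libraries were counted by their 95% intervals. The interval lay above 0 in both libraries for 37 of 547 genes (6.76%) and below 0 in both for 78 (14.3%). Of those 78 genes, 45 were ribosomal protein genes, a list with 81 genes tested in CD and 79 in HFD.

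Ribosomal protein genes code for the proteins of the cytosolic ribosome, and their short, abundant mRNAs lie in the cytosol. The 85 genes of the list together took 8.16% of UMIs in CD members and 10.4% in their matched partners, a log2 ratio of -0.35 (-0.37 to -0.34). In HFD they took 6.56% and 8.19%, a log2 ratio of -0.32 (-0.34 to -0.30). The median gene had a log2 ratio of -0.36 in CD and -0.29 in HFD, against the medians of -0.01 and -0.07 over all genes tested. Of 81 tested genes in CD, 9 were lower by the fold rule, 0 were higher, and 78 lay below 0. Of 79 in HFD, 10 were lower, 0 were higher, and 75 lay below 0. The list was thus low as a group, with few of its genes past the fold rule. Over the 17 alternatives tried, the list's median ran from -1.17 to -0.24 in CD and from -1.37 to -0.14 in HFD, the lowest values being those without matching.

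*Rps28*, a protein of the small ribosomal subunit (chromosome 17, 33819027 to 33824562, minus strand, GRCm38), was at 2307 CPM in CD members and 3211 CPM in their partners, a log2 ratio of -0.48. The HFD values were 1536 and 2323 CPM, a log2 ratio of -0.60. A UMI of *Rps28* was found in 86.2% of matched CD members and 91.6% of partners, and in 68.2% and 77.6% in HFD. *Rps29* (chromosome 12, 69157722 to 69159186, minus strand) was the most abundant of those named, at 5313 against 7487 CPM in CD and 3346 against 4495 CPM in HFD. Further genes with low ratios in both libraries were of the large subunit. *Rpl35a* had log2 ratios of -0.43 in CD and -0.65 in HFD, and *Rpl36* of -0.46 and -0.43. *Rpl22*, *Rpl27* and *Rpl30* lay between -0.57 and -0.40. Many ribosomal protein genes have near-identical pseudogenes, and counting can split reads among such copies, so single values are uncertain.

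Of 6 nuclear noncoding RNAs, 2 passed the UMI minimum. *Neat1* (chromosome 19, 5824708 to 5845478, minus strand), which builds nuclear paraspeckles, was at 2288 CPM in CD members and 1625 CPM in their partners, a log2 ratio of 0.49 (0.38 to 0.61). In HFD it was at 2840 and 2068 CPM, a log2 ratio of 0.46 (0.33 to 0.59). A *Neat1* UMI was present in 92.6% of matched CD members against 79.3% of partners, and in 85.6% against 73.4% in HFD. *Malat1* (chromosome 19, 5795690 to 5802672, minus strand), the most abundant RNA in these cells, was at 67589 CPM in CD members and 51844 CPM in their partners, a log2 ratio of 0.38. In HFD it was at 106153 and 95438 CPM, a log2 ratio of 0.15. Neither gene passed the fold rule, though their ratio stayed above 0 under 17 of 17 alternatives for *Neat1* in both libraries and for *Malat1* in CD. For *Malat1* in HFD it did so under 16 of 17, and was -0.01 among resident-leaning cells, which are defined further on.

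All levels are shares of 1 sum, so a larger share of *Malat1* and a smaller share of ribosomal protein mRNA are not independent measurements. When the ribosomal protein genes were also left out of the sum, the number of genes apart stayed within 1.5 times of the values above in either library. When the mitochondrial genes were kept in the sum, 12 genes were higher and 63 lower in CD, and 5 were higher and 57 lower in HFD.

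**Figure D2:**
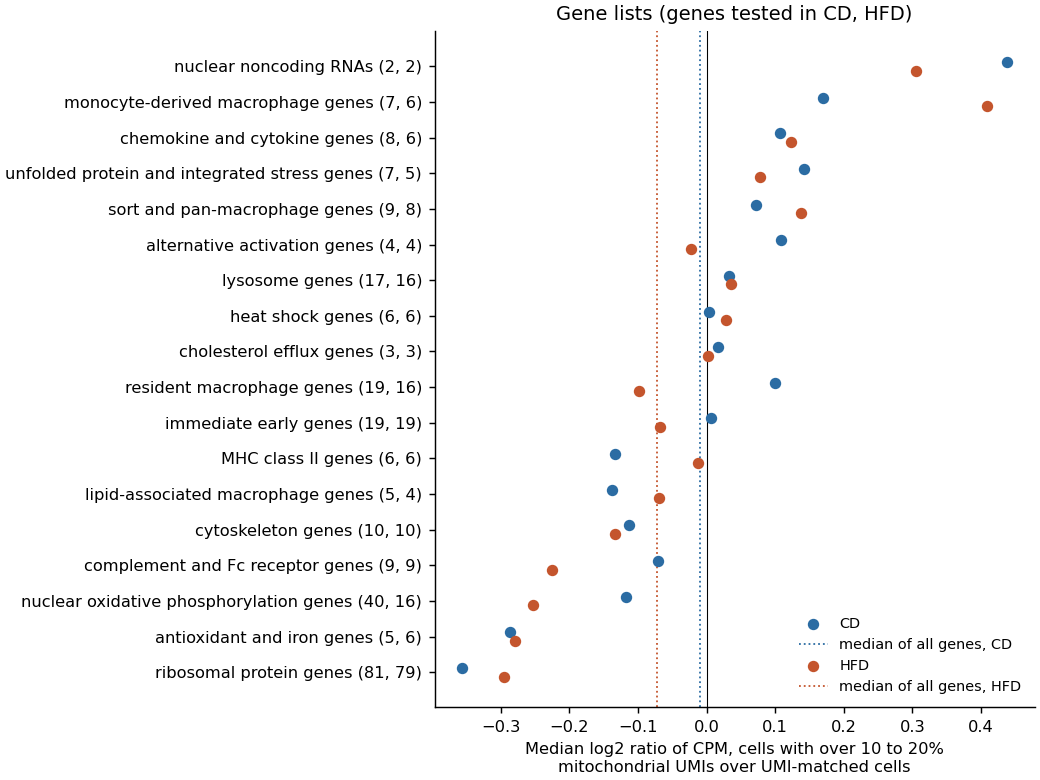
Median log2 ratio of CPM in high-mt cells over UMI-matched low-mt cells (horizontal axis) for each gene list with at least 3 tested genes in both libraries, and for the nuclear noncoding RNAs, with 1 point per library and the number of genes tested in CD and HFD in brackets. Dotted lines mark the median of all genes tested, and the ribosomal protein genes lie farthest to the left of them, at -0.36 in CD and -0.29 in HFD.

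The ribosomal share was also followed along the mitochondrial share with depth held within 600 to 1200 other UMIs. In CD, the ribosomal sum was 91969 CPM in cells of 5 to 7.5% mitochondrial UMIs, 75785 CPM at 7.5 to 10%, 70736 CPM at 10 to 12.5% and 66793 CPM at 17.5 to 20%. In HFD it was 87130 CPM at 2.5 to 5%, 65993 CPM at 7.5 to 10%, 62747 CPM at 10 to 12.5% and 61391 CPM at 17.5 to 20%. Most of the difference in HFD therefore lay below the 10% line, and the level inside the members was nearly flat. The nuclear noncoding RNAs moved the other way, from 55350 CPM at 5 to 7.5% to 93800 CPM at 10 to 12.5% and 101368 CPM at 17.5 to 20% in CD. In HFD they went from 85825 CPM at 2.5 to 5% to 124318 CPM at 10 to 12.5% and 134390 CPM at 17.5 to 20%. The lowest bin in CD held 24 cells.

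**Figure D3:**
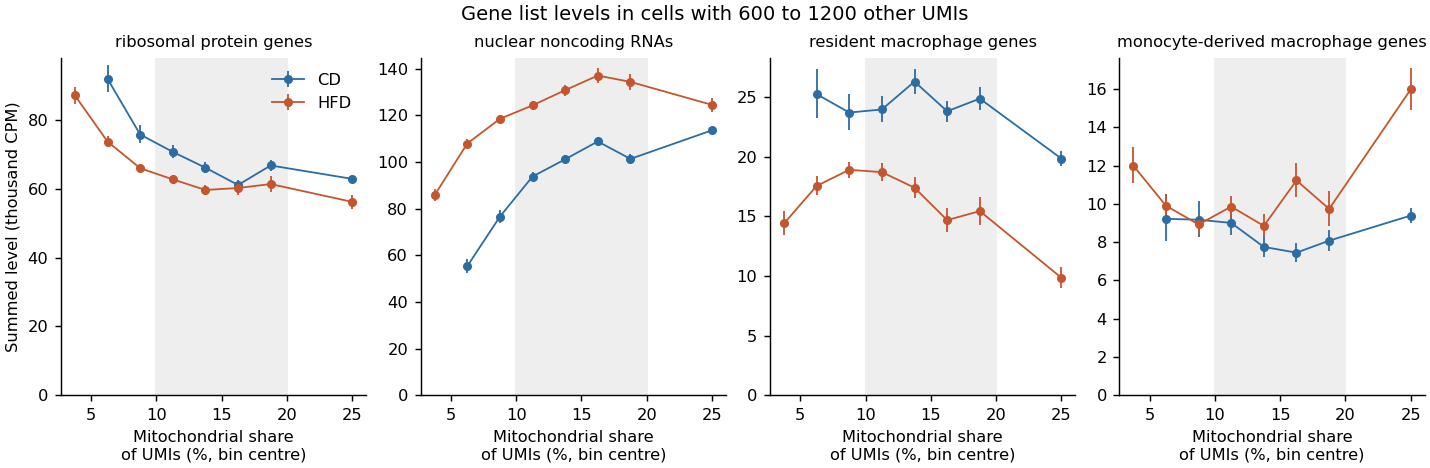
Summed CPM of gene lists (vertical axis) against the share of mitochondrial UMIs (horizontal axis, percent) in cells with 600 to 1200 other UMIs, for the CD and HFD libraries, in bins of at least 20 cells, with the range over 10 to 20% shaded. Ribosomal protein genes go down and nuclear noncoding RNAs go up from the left, with bins on both sides of the 10% line.

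Cells just inside and just outside the limits gave the following values. The ribosomal sum was 97567 CPM in the 132 CD cells at 9 to 10% and 88501 CPM in the 152 cells at 10 to 11%, and in HFD it was 70885 CPM in 142 cells and 72726 CPM in 124 cells. At the upper line it was 62902 CPM in the 64 CD cells at 19 to 20% and 63748 CPM in the 64 cells at 20 to 21%, and in HFD 65991 CPM in 56 cells and 55897 CPM in 38 cells. Other lists were not level across the lines: MHC class II genes were at 22248 CPM below and 28679 CPM above the lower line in CD, and the nuclear noncoding RNAs at 129695 CPM below and 151366 CPM above the upper line in HFD.

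When the partners were taken at or under 5% mitochondrial UMIs, more genes were apart. This left 134 CD and 166 HFD pairs, and 10 genes were higher and 48 lower of 285 tested in both libraries. The ribosomal sum then had a log2 ratio of -0.57 in CD and -0.75 in HFD, and the nuclear noncoding RNAs 0.58 and 0.55. Among members at 15 to 20% against all low-mt partners, the ribosomal sum stood at -0.48 and -0.30 and the nuclear noncoding RNAs at 0.52 and 0.24.

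*Fn1*, which codes for the matrix protein fibronectin (chromosome 1, 71585520 to 71653200, minus strand), was at 942 CPM in CD members and 505 CPM in their matched partners, a log2 ratio of 0.90 (0.71 to 1.09). In HFD it was at 2096 and 1098 CPM, a log2 ratio of 0.93 (0.77 to 1.10). In CD the UMIs were concentrated in few cells: the 10 cells with the most held 51.4% of the 632 *Fn1* UMIs in CD members, and 1 cell held 49. In their partners the top 10 cells held 34.1% of 340 UMIs, and the share of cells with an *Fn1* UMI was 30.5% in members and 28.6% in partners. The HFD members were less concentrated than their partners, with 29.2% of 865 *Fn1* UMIs in the top 10 cells against 34.4% of 454. When low-mt cells were drawn with replacement, so that 878 CD members were kept, the CD ratio was 0.04, while the HFD ratio with 766 members was 0.84. Without matching it was -1.06 in CD and -0.33 in HFD. The draw with replacement changed both the partners and the members kept, so the 2 cannot be told apart in the CD value.

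*Ear2*, an eosinophil-type ribonuclease of the monocyte-derived list, was at 428 CPM in CD members and 226 CPM in their partners, a log2 ratio of 0.92 (0.63 to 1.21), and at 918 and 653 CPM in HFD, a log2 ratio of 0.49. Its top 10 cells held 54.7% of UMIs in CD members and 34.9% in their partners, against 38.5% and 35.6% in HFD. The CD ratio was 0.12 with partners drawn with replacement, and the HFD ratio was -0.19 for members from 15 to 20% and -0.08 among resident-leaning cells. The resident-leaning class is cut with *Ear2* among its genes, so the value inside it is set in part by the cut. *Ear2* belongs to a family of near-identical genes.

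The remaining genes that led in both libraries were of several kinds. *Cd84*, a SLAM family receptor, was at 247 against 177 CPM in CD and 359 against 230 CPM in HFD. *Icam1*, the adhesion molecule bound by integrins on leukocytes, was at 402 against 256 CPM in CD and 407 against 293 CPM in HFD. *Nrros*, a membrane protein of macrophages and microglia, had log2 ratios of 0.45 in CD and 0.63 in HFD. *Hnrnph1*, a splicing regulator, had 0.45 and 0.54, and *Ccnl1*, a cyclin that acts in splicing, 0.47 and 0.45. Not every direction held: the ratio of *Icam1* in HFD was -0.21 among resident-leaning cells, and that of *Nrros* in CD was close to 0 among recruited-leaning cells.

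The resident program differed little in CD in this matched set. Its 20 genes summed to 28228 CPM in CD members and 27535 CPM in their partners, a log2 ratio of 0.04 (0.01 to 0.07), and 0 of 19 tested genes were apart. In HFD the sum was 15392 against 17385 CPM, a log2 ratio of -0.18, and 1 of 16 tested genes was lower, *Ednrb*, an endothelin receptor. *Lyve1*, the hyaluronan receptor, was at 495 and 528 CPM in CD and 245 and 269 CPM in HFD. *Folr2*, the folate receptor of resident macrophages, was at 1723 and 1733 CPM in CD. In HFD *Folr2* was at 492 CPM in members and 694 CPM in partners, and *Selenop*, a selenium carrier, at 3124 and 4316 CPM. *Timd4* was below the UMI minimum in both libraries. The median log2 ratio of the resident list was 0.10 in CD and -0.10 in HFD. Over the 16 alternatives that kept matching it ran from -1.14 to 0.49 in CD and from -0.23 to 0.09 in HFD. These include the comparisons within resident-leaning and recruited-leaning cells, classes cut with the genes of this list, so the range holds part of that selection.

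The sum of the monocyte-derived program was level in CD, at 10352 CPM in members and 10266 CPM in partners. Of 7 tested genes there, 2 were higher, *Fn1* and *Ear2*. In HFD it was at 12695 and 11170 CPM, a log2 ratio of 0.18, with 2 of 6 tested genes higher, *Fn1* and *Cd52*. *Lyz1*, a lysozyme gene nearly identical to *Lyz2*, was at 1069 and 803 CPM in CD and at 1718 and 1785 CPM in HFD. *Ccr2*, the receptor that brings monocytes into tissue, was at 326 and 332 CPM in CD and at 497 and 397 CPM in HFD. The median log2 ratio of the monocyte-derived list was 0.17 in CD and 0.41 in HFD. Over the 16 alternatives that kept matching, this median ran from -0.22 to 0.75 in CD and from -0.06 to 0.61 in HFD. The classes cut with the genes of this list are again among them.

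Genes of antigen presentation by MHC class II summed to 28232 CPM in CD members and 31693 CPM in their partners, and to 32377 and 33367 CPM in HFD, with 0 of 6 genes apart in either. *Cd74*, the invariant chain, was at 11280 and 13068 CPM in CD and 14622 and 14482 CPM in HFD. *Retnla*, a secreted protein of alternatively activated macrophages, was at 31813 and 29581 CPM in CD and at 27673 and 21307 CPM in HFD. Complement and Fc receptor genes had a median log2 ratio of -0.07 in CD and -0.22 in HFD with 0 of 9 apart in either. *C1qb*, a chain of complement C1q, was at 3199 and 3565 CPM in CD and 2154 and 2729 CPM in HFD.

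Stress and immediate early genes, which can respond to tissue digestion, did not stand apart. The immediate early list had a median log2 ratio of 0.01 in CD and -0.07 in HFD over 19 genes in each, and 1 gene, *Egr3*, was higher in CD. *Fos* was at 6299 and 6802 CPM in CD and 6693 and 7638 CPM in HFD. The heat shock list had medians of 0.00 and 0.03, and the unfolded protein list 0.14 and 0.08. *Hspa1a*, an inducible chaperone whose sequence is nearly that of *Hspa1b*, was at 486 and 636 CPM in CD and at 1267 and 1135 CPM in HFD. Of the apoptosis list 1 gene was tested, the survival gene *Mcl1*, with log2 ratios of 0.27 and 0.20. The lysosome list had medians of 0.03 and 0.04, and chemokine and cytokine genes 0.11 and 0.12.

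Nuclear genes for the respiratory chain did not go up with the mitochondrial transcripts. Their median log2 ratio was -0.12 in CD, with 0 of 40 tested genes apart and 30 below 0, and -0.25 in HFD, with 2 of 16 lower and 15 below 0. *Uqcrh*, the hinge protein of complex III, and *Atp5l*, a subunit of ATP synthase, were the lower genes. The nuclear genes that copy, transcribe and stabilise mitochondrial DNA and its RNA were too rare to test, at 313 and 357 CPM in CD and 373 and 336 CPM in HFD for the whole list. Antioxidant and iron genes had medians of -0.29 and -0.28. *Ftl1* and *Fth1*, the light and heavy chains of ferritin, had log2 ratios of -0.29 and -0.33 in CD and -0.22 and -0.36 in HFD. *Tmsb4x*, the actin-binding thymosin, was at 9719 and 12781 CPM in CD and 7042 and 8313 CPM in HFD. Ferritin and thymosin mRNAs thus lay on the same side of 0 as the ribosomal protein genes in both libraries. The cytoskeleton list that holds *Tmsb4x* had a median log2 ratio of -0.11 in CD and -0.13 in HFD. Of its 10 tested genes, 8 lay below 0 and 2 above in CD, 7 below and 3 above in HFD, and 0 were apart.

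Markers of other cells in the matched sets were few and uneven. Peritoneal macrophage markers had 77 UMIs in 7 matched CD members, 43 of them from *Alox15*, and 7 UMIs in their partners, and 1 member held at least 5. Neutrophil markers had 13 UMIs in matched CD members and 101 in their partners, and stromal markers 27 and 61. With every cell carrying a UMI of these 3 lists left out on both sides, the log2 ratio of *Fn1* was 0.99 in CD and 0.82 in HFD, that of *Neat1* 0.38 and 0.43, and that of *Rps28* -0.43 and -0.61.

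Without matching, the comparison gave other programs. Of 6018 genes in CD, 2204 were higher in members than in all low-mt cells (36.6%) and 1091 were lower (18.1%), and of 4580 in HFD 1649 were higher (36.0%) and 1061 lower (23.2%). The resident program had a log2 ratio of 0.67 in CD and 1.0 in HFD, and the monocyte-derived program -1.03 and -1.01. MHC class II genes stood at -0.79 and -0.97, ribosomal protein genes at -1.05 and -1.33, and nuclear noncoding RNAs at 1.63 and 1.81. Low-mt cells were deeper by several times, and depth and mitochondrial share cannot be told apart in these values.

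**Figure D4:**
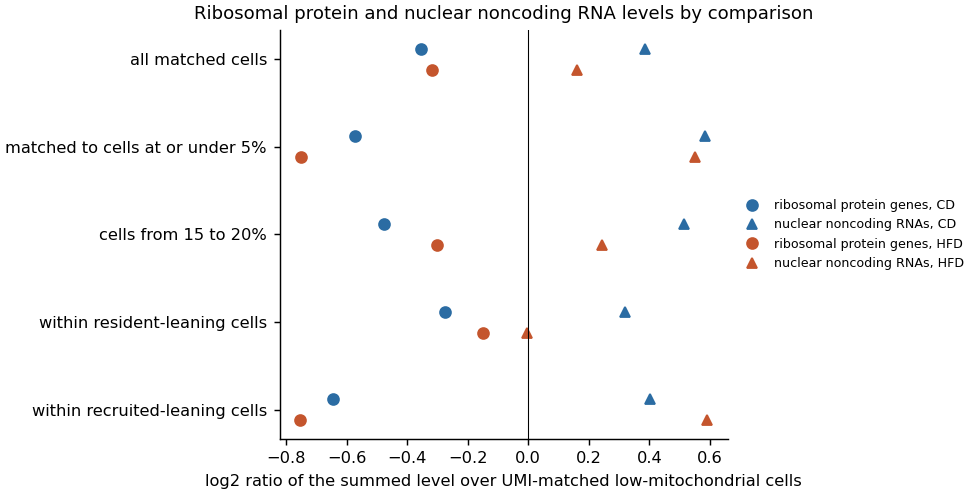
Log2 ratio of summed CPM in high-mt cells over low-mt cells for ribosomal protein genes and nuclear noncoding RNAs in the CD and HFD libraries, for 5 choices of the cells compared. Ribosomal protein genes lie below 0 in every choice, and nuclear noncoding RNAs lie above 0 in every choice except at 0.00 in resident-leaning HFD cells.

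Which kinds of macrophage the members were was read from a score within each cell. Every cell was thinned to 500 UMIs outside the mitochondrial genes, and it was called resident-leaning when the 20 resident genes had more UMIs than the 12 monocyte-derived genes, and recruited-leaning in the opposite case. These are ranges of a score and not cell types: 48 CD and 112 HFD members lay within 1 UMI of the line. In CD, 803 of 895 members that reached this depth were resident-leaning, or 89.7% (87.5 to 91.6). In HFD, 454 of 669 were, or 67.9% (64.2 to 71.4), with 128 members left out as too shallow. The HFD share was lower by 21.9 percentage points (17.8 to 25.9).

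Against matched partners the difference in this share was small. In CD, 88.4% of matched members and 83.4% of partners were resident-leaning, a difference of 4.99 points (0.17 to 9.81), which became -1.07 when partners were taken from 5 to 10%. In HFD the shares were 69.8% and 69.2%, a difference of 0.56 points (-5.73 to 6.85), which became -7.49 with partners from 5 to 10% and -24.4 in the cells deep enough to be thinned to 1000 UMIs.

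Members and partners were compared again within each range. Among resident-leaning cells, with 324 CD and 250 HFD pairs, 0 of 291 genes were apart in both libraries, and ribosomal protein genes had a median log2 ratio of -0.28 in CD and -0.14 in HFD. Among recruited-leaning cells, with 48 CD and 135 HFD pairs, 30 of 113 genes tested in both were apart, 28 of them lower in members. The ribosomal median there was -0.77 in CD, with 33 of 34 genes below 0, and -0.70 in HFD, with 61 of 61 below 0. The median over all genes tested was itself low in this range, at -0.31 in CD and -0.29 in HFD, against -0.02 in either library among resident-leaning cells. The partners differed as well, with a median mitochondrial share of 5.89% in CD and 5.91% in HFD for recruited-leaning partners, against 7.57% and 7.77% for resident-leaning ones. The part of that gap in the ribosomal values was not tested.

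Inside the members, resident-leaning and recruited-leaning cells differed in the programs outside the lists that defined them. MHC class II genes were at 25273 CPM in resident-leaning and 46967 CPM in recruited-leaning CD members, a log2 ratio of -0.89 (-0.94 to -0.85), and at 23226 and 40355 CPM in HFD, a log2 ratio of -0.80 (-0.84 to -0.75). Complement and Fc receptor genes went the other way, with log2 ratios of 0.99 in CD and 0.97 in HFD. Cholesterol efflux genes, a list led by *Apoe*, had 1.35 and 1.26. Cell cycle genes were at 601 and 1441 CPM in CD and 397 and 845 CPM in HFD. Ribosomal protein genes were nearly equal, with log2 ratios of -0.01 and -0.08. The macrophage programs thus remained distinct within the members, at a median mitochondrial share of 14.2% in resident-leaning and 15.1% in recruited-leaning CD members and of 13.5% and 13.4% in HFD. Both classes were cut from the same cells, so these ratios are a description.

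Between the diets, 8 of 19 tested resident genes were lower in HFD members than in CD members, and among the genes highest in HFD were the lipid droplet gene *Plin2* and the chaperone genes *Hspa1a* and *Hspa1b*. A gene was called apart here when it differed by 1 or more on the log2 scale, 2-fold, with at least 200 UMIs in the 2 libraries together. Of 1313 genes, 21 were higher in HFD (1.60%) and 31 were lower (2.36%). The median log2 ratio over all of them was -0.12, and centred on it the split was 21 higher and 20 lower. In bulk sums of this kind, fewer cells of a type and less RNA per cell cannot be told apart.

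*Plin2*, the coat protein of lipid droplets (chromosome 4, 86648386 to 86670060, minus strand), was at 438 CPM in CD members and 1537 CPM in HFD members, a log2 ratio of 1.81 (1.66 to 1.97). In low-mt cells its log2 ratio was 1.55. *Lgals3*, galectin-3, was at 280 and 721 CPM, a log2 ratio of 1.37, and *Pla2g7*, an enzyme that breaks down platelet-activating factor, was at 136 and 354 CPM. Of the lipid-associated macrophage list, 2 of 5 tested genes were higher, *Plin2* and *Lgals3*, while *Lpl*, lipoprotein lipase, was at 503 and 579 CPM and *Trem2* was below the UMI minimum.

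*Rgs1*, a brake on chemokine receptor signals, was at 80 CPM in CD members and 311 CPM in HFD members, a log2 ratio of 1.96. *Mpeg1*, the pore-forming perforin-2 of macrophages, was at 84.5 and 278 CPM, a log2 ratio of 1.72 in members and 1.04 in low-mt cells. The noncoding gene *F630028O10Rik* was at 55 and 227 CPM, a log2 ratio of 2.05 in members (1.61 to 2.51) and 0.83 in low-mt cells. *Hspa1a* was at 544 and 1363 CPM and *Hspa1b* at 93.3 and 283 CPM, the 2 genes apart among 7 tested heat shock genes, of which 7 lay above 0. Of 10 chemokine and cytokine genes 3 were higher, *Cxcl1*, *Cxcl2* and *Il1b*, and 1 was lower, *Ccl8*. *Cxcl2*, a neutrophil attractant, was at 1190 and 2496 CPM. *Cd14*, the co-receptor for lipopolysaccharide, was at 333 and 768 CPM.

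Of 19 tested resident genes 8 were lower and 0 were higher, with a median log2 ratio of -0.94. The list summed to 27008 CPM in CD members and 15478 CPM in HFD members. *Folr2* was at 1597 and 503 CPM, a log2 ratio of -1.67 (-1.84 to -1.49), and *Cbr2*, a carbonyl reductase, at 707 and 209 CPM. *Cd209d*, a lectin of the DC-SIGN family whose members are alike in sequence, was at 493 and 144 CPM, and *Selenop* was at 6272 and 2908 CPM. *Lyve1* was at 443 and 225 CPM, a log2 ratio of -0.98 that fell short of the rule. The same list had a median of -1.29 in all low-mt cells, with 13 of 20 genes lower. In the sets matched on UMIs within each library the order was the other way round. There the median was -1.01 in members, with 10 of 19 genes lower, and -0.71 in low-mt cells, with 5 of 19 lower.

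The lowest ratios of all belonged to genes outside that program as well. *Pla2g2d*, a secreted phospholipase (chromosome 4, 138775735 to 138782046, plus strand), was at 165 CPM in CD members and 30.3 CPM in HFD members, a log2 ratio of -2.44. *Ly6e*, a lymphocyte antigen 6 gene induced by interferon, was at 1125 and 212 CPM, a log2 ratio of -2.41. *Ccl8*, a chemokine of resident macrophages, was at 472 and 101 CPM, a log2 ratio of -2.23 in members and -3.44 in low-mt cells. *Cd209a*, a lectin of the same DC-SIGN family, was at 210 and 54.3 CPM, with log2 ratios of -1.95 in members and -0.90 in low-mt cells. *Rnase4*, a secreted ribonuclease, was at 394 and 123 CPM.

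The 16 genes with the highest and lowest ratios had the same sign in high-mt and low-mt cells, as the plot of both shows, while genes nearer 0 did not all do so. *Cd36* had a log2 ratio of -0.06 in members and 0.32 in low-mt cells, and *Retnla* one of -0.25 and 0.20. Those low-mt values are from all low-mt cells, which were deeper. In the sets matched on UMIs within each library, *Cd36* was at 0.03 in members and 0.25 in low-mt cells. The 4 tested alternative activation genes, *Retnla* among them, lay below 0 in both matched sets. The comparisons in high-mt and in low-mt cells share no cells but share the libraries, so any difference between the libraries enters both. In low-mt cells, 56 of 7082 genes were higher (0.791%) and 136 were lower (1.92%), with more UMIs per gene and so more genes at the minimum. In matched low-mt cells, 13 of 742 genes were higher (1.75%) and 23 were lower (3.10%), and in matched members 13 of 761 were higher (1.71%) and 31 were lower (4.07%).

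**Figure D5:**
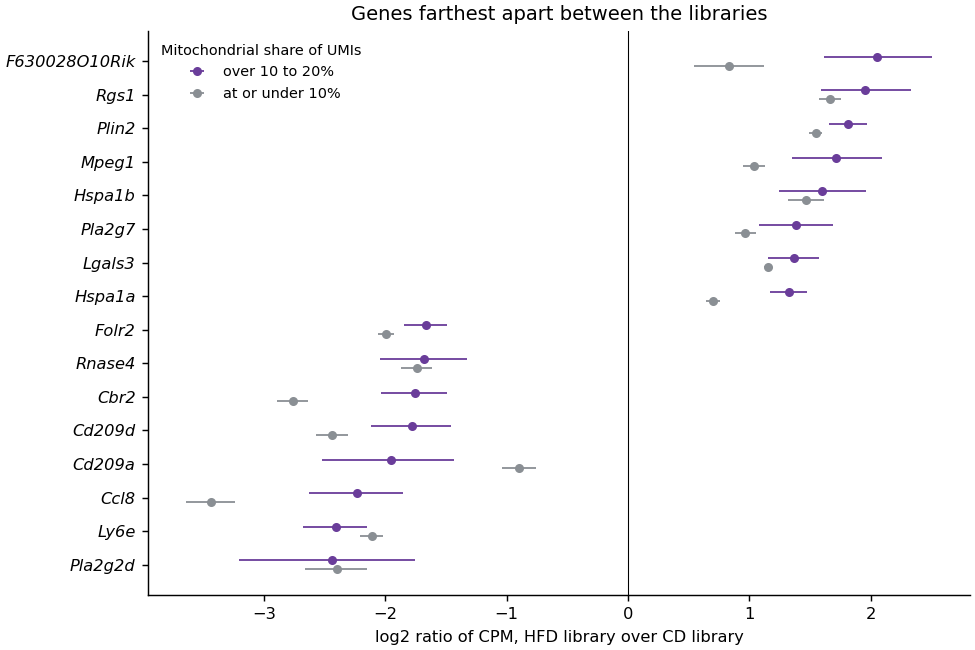
Log2 ratio of HFD over CD CPM in high-mt cells and in low-mt cells for the 8 highest and the 8 lowest genes of the high-mt comparison, with 95% counting intervals. Each of the 16 genes lies on the same side of 0 in both sets of cells, with *Plin2* at 1.81 and 1.55 and *Folr2* at -1.67 and -1.99.

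The monocyte-derived list had 3 of 8 tested genes higher, *Ear2*, *Fn1* and *Tnip3*, with a median log2 ratio of 0.64 and sums of 9548 CPM in CD and 11547 CPM in HFD members. Among members from 15 to 20% the log2 ratio was 0.17 for *Ear2* and 0.50 for *Fn1*, short of the rule, and the list's median was 0.17. With members matched on UMIs between the libraries they were 2.11, 1.78 and 1.19. *Lyz1* was at 902 and 1625 CPM and *Ccr2* at 298 and 404 CPM. MHC class II genes had a median of -0.03, with 0 of 6 apart. Alternative activation genes had a median of -0.39 and interferon-stimulated genes one of -0.51, with 0 of 4 apart and 4 below 0 in each list. Immediate early genes had a median of 0.18, with 0 of 20 apart and 17 above 0. Of 8 *Plac8* monocyte genes 1 was tested and lower in members, *Lst1* at -1.29. The 8 tested in all low-mt cells had a median of 0.55 and ran from -0.44 to 1.80, so the 2 values cover unlike genes. The sum of the list had a log2 ratio of -0.62 in members and 0.30 in all low-mt cells. In the sets matched on UMIs within each library it was -0.66 in members (-1.16 to -0.19) and -0.33 in low-mt cells (-0.77 to 0.10). Complement and Fc receptor genes had a median of -0.51 with 0 of 9 apart, and nuclear respiratory chain genes a median of -0.48 with 2 of 43 lower, *Atp5k* and *Ndufb7*. *Abca1*, the cholesterol exporter, was at 376 and 479 CPM, a log2 ratio of 0.35 (0.13 to 0.57), and *Cd36*, a fatty acid scavenger receptor, had a log2 ratio of -0.06. *Malat1* was at 78097 and 117866 CPM, a log2 ratio of 0.59, beside a median of 1093.5 other UMIs per cell in CD members and 666 in HFD members. Ribosomal protein genes had a median of -0.14 over 81 tested.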

How the data were processed

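For 1 CD and 1 HFD library the authors deposited raw UMI counts, made with Cell Ranger 3.0.2 on mm10 and not normalized. No value was altered before summing. The members and the gene lists were chosen with earlier results of these data known. Sums and intervals used scipy 1.17.1, numpy 2.4.6 and pandas 2.3.3 under Python 3.11.15, and matplotlib 3.10.9 drew the plots.

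UMIs were summed over cells and scaled to CPM without the 13 mt- genes. Levels had exact Poisson intervals, ratios exact conditional binomial intervals and shares exact Clopper-Pearson intervals, at 95% and for counting error only. No p-value was computed, since cells are not replicates. Doublets were not called; an upper limit of 2500 genes was an alternative. Named genes were a fixed set of macrophage genes, the 4 most abundant genes of each list, the 8 highest and 8 lowest genes by the smaller ratio of the libraries, and the 8 highest and 8 lowest ratios between diets; genes that made up a count of 5 or fewer were also named, after their values had been seen. Of 85 symbols in the ribosomal list 81 passed the minimum in CD. Some genes that these rules select are not reported here. Positions are from the GENCODE annotation of GRCm38. On simulated counts drawn from the Poisson law that the intervals assume, 96.2% of intervals held the true ratio in CD, 95.7% in HFD and 95.2% between diets. Spread between cells was not simulated, so these shares check the computation and not how well the intervals fit these data. On the same simulated counts the fold rule called 0.271% of unchanged genes in CD and 4.52% in HFD, where counts were fewer. Single HFD genes called apart are therefore uncertain, and the rates with spread between cells were not tested. Alternatives changed the matching, the limits, the scaling, the depth and the cells compared; 3 were added after seeing the data.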

Additional observations from a re-analysis of the deposited data

How the results depend on the processing

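No paired analysis was possible because each diet had 1 library. The number of genes apart in both libraries, 2, was 2006 without matching, 8 when matched on all UMIs, 13 on the number of genes, 4 with another seed, 5 with partners from 5 to 10%, 58 with partners at or under 5%, 12 for members from 15 to 20%, 1 under 2500 genes, 4 when centred, 9 with mt- genes kept, 66 at a minimum of 50 UMIs, 0 in resident-leaning and 30 in recruited-leaning cells, 16 with replacement and 1 without cells of other markers. In CD, 42 became 3295 without matching, 100 on the number of genes, 75 with mt- genes kept, 27 thinned to 500 UMIs, 564 at 50 UMIs, 218 with replacement and 110 at or under 5%. In HFD, 41 became 2710 without matching, 27 with partners from 5 to 10%, 23 for members from 15 to 20%, 62 with mt- genes kept, 15 thinned, 447 at 50 UMIs, 12 in resident-leaning and 76 in recruited-leaning cells, 85 with replacement, 112 at or under 5% and 19 without cells of other markers. Fewer cells or UMIs leave fewer genes to test; otherwise the cause was not tested. *Ear2* turned to -1.40 in CD and -1.25 in HFD without matching, to -0.26 in CD at or under 5%, and to -0.19 in HFD for members from 15 to 20%. In resident-leaning HFD cells it was at -0.08, but that class is cut with *Ear2* among its genes. *Fn1* turned to -1.06 in CD and -0.33 in HFD without matching. Other named genes also changed sign without matching, among them *Lyz1* in CD at -1.85, *Folr2* in HFD at 0.76 and *Retnla* in HFD at -0.77. Of the values for named genes in the matched comparison, 901 stayed inside the counting interval of the reported value. A further 370 did not, and 4 were classed as reversed.

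The share of barcodes became 15.8% in CD and 8.50% in HFD from 500 genes, 26.7% and 34.0% from 8% mitochondrial UMIs, and 11.6% and 15.7% up to 15%. The difference in the resident-leaning share became 25.4 points in CD and 23.3 in HFD without matching, -1.07 and -7.49 with partners from 5 to 10%, and -24.4 in HFD when thinned to 1000 UMIs. The 52 genes apart between diets became 32 when matched on UMIs, 20 for members from 15 to 20%, 26 thinned and 210 at 50 UMIs. Depth limits the matched comparison to the deeper members, and genes under 200 UMIs, such as *Timd4* and *Trem2*, could not be compared.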

Other observations

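Members without a low-mt partner were set beside the matched members of the same library. Their ribosomal sum had a log2 ratio of -0.26 in CD and -0.04 in HFD, and their nuclear noncoding RNAs one of 0.46 and 0.40. MHC class II genes stood at -0.10 in CD and -0.62 in HFD, and the monocyte-derived program at -0.30 and -0.44. Of 820 genes in CD 57 were apart, and of 414 in HFD 55 were. These members were shallower and had a higher mitochondrial share, and depth and share cannot be told apart here.

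Among the lower genes of the matched comparison in 1 library were *Gsn*, the actin-severing gelsolin, with a log2 ratio of -1.07 in CD, and *Selenow*, a small selenoprotein, with -0.85 in HFD. *Vmp1*, a membrane protein of autophagy, was higher at 0.77 in CD, and *Gm2a*, the lysosomal GM2 activator, at 0.81 in HFD. These 4 were named after their values had been seen.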
